A study of Homo sapiens with 4 samples.

Results

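The 10 genes described here encode subunits of the BAF (SWI/SNF) chromatin remodelling complex that exist as exchangeable relatives, and they were taken by symbol: ACTL6A and ACTL6B, SS18 and SS18L1, PHF10, DPF2, DPF1 and DPF3, and SMARCA4 and SMARCA2. All 10 were found by symbol, 1 identifier each, among the 69222 gene identifiers of the count files, and all 10 had enough counts to be tested. The cells were HEK293T, an established line from human embryonic kidney with the large T antigen of SV40. They were transduced with a lentivirus encoding either a control short hairpin RNA (shCtrl, 2 libraries) or a hairpin against RPRD1B (shRPRD1B, 2 libraries). RPRD1B binds the phosphorylated C-terminal domain of RNA polymerase II. Both groups therefore share the cell line, the viral vector and a hairpin. Neither the hairpin sequences nor the time after transduction is stated in the labels. Poly(A) RNA was sequenced, and the values are read counts per gene.

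BAF complexes use ATP to move or eject nucleosomes and so open promoters and enhancers. When neural progenitors leave the cell cycle and become neurons, several subunits are exchanged for a relative encoded by another gene: the actin-related protein ACTL6A for ACTL6B, the plant homeodomain (PHD) finger proteins PHF10 and DPF2 for DPF1 and DPF3, and SS18 for SS18L1. The ATPase of the complex is either SMARCA4 or SMARCA2, in progenitors and in neurons. In developing neurons miR-9-3p and miR-124 repress ACTL6A, and the repressor REST holds those miRNAs and many neuronal genes down in other cells.

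Total counts lay between 47732913 and 65572391 per library. The labels do not say that the replicates came from separate cultures, so a p-value here rests on a spread between samples that may be technical. Values are given as CPM, read counts scaled to one common library total with TMM factors, and a fold change is shRPRD1B over shCtrl from edgeR's quasi-likelihood fit over 20319 genes. The threshold was a Benjamini-Hochberg adjusted p of 0.05. RPRD1B itself gave 50.4 and 50.1 CPM under shCtrl, then 27.2 and 35.5 CPM under shRPRD1B, so both knockdown libraries lay below both controls and still held the transcript. Its log2 fold change was -0.68 ± 0.16, which did not pass with edgeR (adjusted p = 0.448) or limma voom (adjusted p = 0.490) and passed with DESeq2 (adjusted p = 0.0418). The 2 knockdown libraries were further apart than the 2 control libraries: the log2 ratio within the pair had an SD of 0.39 for shRPRD1B and 0.17 for shCtrl among genes of at least 16 CPM.

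Of the 10 genes, ACTL6B alone differed between the groups by more than 2-fold. It had about 9 times the control level in the shRPRD1B libraries. The other 9 genes had fitted fold changes between 0.814 (SMARCA2) and 1.16 (PHF10). The edgeR test called 0 of the 10 over all genes, against 0.0689% of all tested genes (0.0295% higher and 0.0394% lower). At an unadjusted p under 0.05 there was 1 of the 10, ACTL6B, against 7.49% of all tested genes. DESeq2 called 1 of the 10 higher, ACTL6B, against 0.718% of the genes it tested called higher and 1.34% called in either direction, and limma voom called 0. A log2 fold change above 0 was found for 8 of the 10 and for 50.5% of all tested genes. For ACTL6B, DPF2 and PHF10 the knockdown pair lay wholly above the control pair, as it did for 20.3% of tested genes. For SMARCA2 it lay wholly below, as for 20.6%. Together that is 4 of 10 members beside 40.9% of all tested genes.

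**Figure D1:**
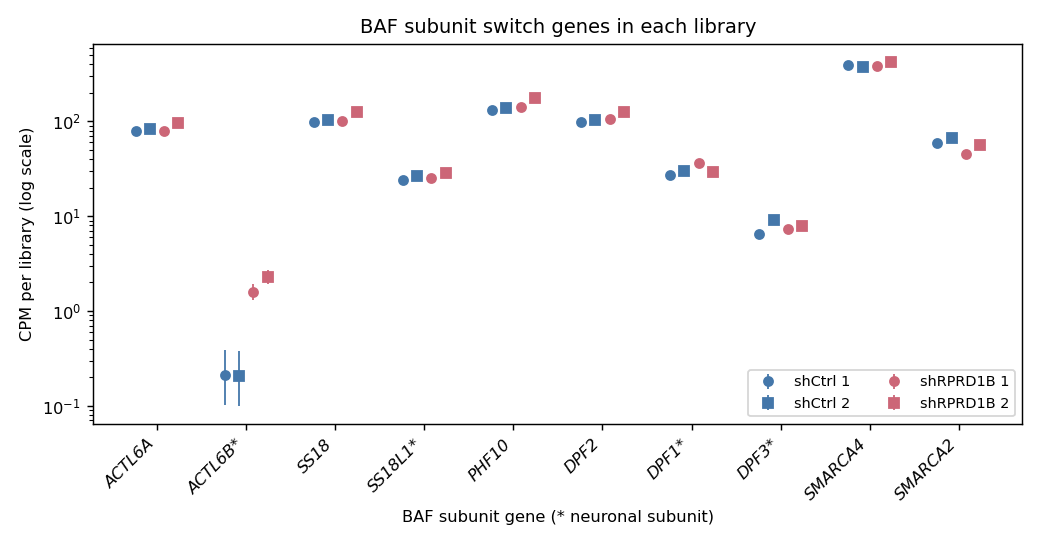
CPM of the 10 subunit genes in each library on a log scale, with the shCtrl libraries in blue and the shRPRD1B libraries in red, circles for replicate 1 and squares for replicate 2; bars are exact 95% Poisson intervals of the count. ACTL6B separates the groups most widely (0.211 and 0.205 against 1.60 and 2.30 CPM). Every other gene had a fitted fold change between 0.814 (SMARCA2) and 1.16 (PHF10).

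The actin-related subunits form the first pair. ACTL6B (ENSG00000077080.10, chromosome 7, 100643097 to 100656448, minus strand, GRCh38.p14) encodes the neuronal form, which is needed for dendrite growth. Its counts were 10 and 10 under the control hairpin, and 105 and 126 under the RPRD1B hairpin. As CPM these were 0.211, 0.205, 1.60 and 2.30, and both knockdown libraries lay far above both controls. The exact 95% Poisson intervals, which cover counting error only, were 0.101 to 0.388 and 0.0985 to 0.378 CPM in the controls and 1.31 to 1.94 and 1.91 to 2.74 CPM in the knockdown libraries. These intervals do not overlap between the groups, but they leave out variation between libraries. For PHF10 they were apart even within shRPRD1B (137 to 143 and 173 to 180 CPM). In bulk RNA, a higher level in all cells and a high level in a few cells cannot be told apart.

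The means of ACTL6B were 0.208 ± 0.00397 CPM in shCtrl and 1.95 ± 0.492 CPM in shRPRD1B (SD, n = 2 each). The fitted fold change was 9.20, with a 95% interval from 4.31 to 19.6 (log2 fold change 3.20 ± 0.44, SE). Its unadjusted edgeR p was 0.000443, rank 55 of 20319, and its adjusted p was 0.164, so ACTL6B did not pass over all genes. A log2 fold change at least this large was seen for 0.177% of the tested genes. ACTL6B rose with DESeq2 (log2 fold change 3.23, adjusted p = 9.21e-06), and limma voom gave 3.13 (adjusted p = 0.281). Over all the alternatives that gave a value its adjusted p ran from 9.21e-06 to 0.281. With edgeR it was not called without shCtrl 1 (3.23, adjusted p = 0.249) or without shCtrl 2 (3.19, adjusted p = 0.265). It was called without shRPRD1B 1 (3.45, edgeR adjusted p = 7.62e-05) and without shRPRD1B 2 (2.93, adjusted p = 0.00113). In those latter fits the lone knockdown library is assumed to vary like the controls, and many more genes were called (3139 higher and 3096 lower, and 1269 higher and 960 lower).

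The genes around ACTL6B had far smaller differences. Of 25 protein-coding genes within 250 kb, 20 were tested, and their log2 fold changes ran from -0.57 to 0.26 with a median of -0.024. The next gene on the lower side, TFR2, ends 1545 bases from ACTL6B and had too few counts to be tested (0.148, 0.0822, 0.137 and 0.237 CPM in shCtrl 1 and 2 and shRPRD1B 1 and 2). The next on the other side, GNB2, lies 17292 bases away, and had 347 and 333 CPM in the controls and 392 and 300 CPM in the knockdown libraries. The annotation has no gene overlapping ACTL6B in RefSeq or GENCODE 29.

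**Figure D2:**
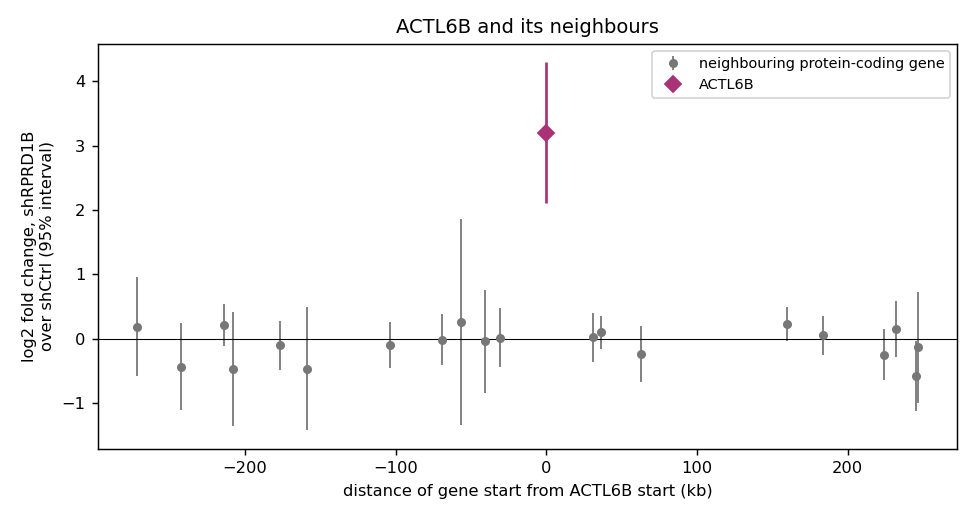
Log2 fold changes (shRPRD1B over shCtrl, edgeR, bars are 95% intervals) of ACTL6B and of the 20 tested protein-coding genes within 250 kb, by the distance of their start from that of ACTL6B in kb. ACTL6B stands at 3.20, and its neighbours lie between -0.57 and 0.26.

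ACTL6A (ENSG00000136518.17, chromosome 3, 179562926 to 179588407, plus strand), the actin-related subunit of progenitors and most other cells, had 78.9 and 82.2 CPM in shCtrl 1 and 2 and 79.3 and 97.1 CPM in shRPRD1B 1 and 2. The groups overlapped, and shRPRD1B 2 was the highest library. The log2 fold change was 0.13 ± 0.14 (adjusted p = 0.812), with an interval for the fold from 0.864 to 1.39. A fall of ACTL6A to under 0.864 times its control level lies outside that interval. The 3′ end of ACTL6A overlaps that of MRPL47 on the other strand. The strand setting of the counting is not given, so some of the ACTL6A reads could belong to MRPL47. Of the other members, PHF10 overlaps the protein-coding gene C6orf120, and DPF3 overlaps RGS6 in RefSeq. Whether reads were shared there was not tested.

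Because the known neuronal switch acts on ACTL6A through miR-9-3p, the mature miRNA and the places in the members' 3′ untranslated regions (UTRs) that match its seed are shown. The miRNA is made from the 3 loci MIR9-1 (chr1:156420354-156420375, minus strand), MIR9-2 (chr5:88666866-88666887, minus strand) and MIR9-3 (chr15:89368071-89368092, plus strand), as RefSeq gives them on GRCh38.p14. Capitals mark the seed, bases 2 to 8.

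hsa-miR-9-3p: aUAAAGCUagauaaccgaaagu

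The DNA letters that pair with this seed are AGCTTTA. In 1 GENCODE 29 transcript per gene they occur on the sense strand of the 3′ UTR in ACTL6A at 2 places and in SMARCA2 at 1 place, and not in the transcripts used for the other 8 members. The same 7 letters occur in 11.9% of the 18847 measured protein-coding genes with a 3′ UTR. Each line gives 30 bases of the sense strand with the match in capitals. The first ACTL6A site is chr3:179588048-179588077, the second is chr3:179588137-179588166, and the SMARCA2 site is chr9:2192851-2192880 (all plus strand, GRCh38).

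ACTL6A site 1: ttacgtttcatAGCTTTAgtatactcagga

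ACTL6A site 2: aaattttttaaAGCTTTAactggctctata

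SMARCA2 site: gtctataaactAGCTTTAggatagtgccag

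The bases that pair without a break from base 2 of the miRNA number 8 at the first ACTL6A site, 7 at the second and 9 at the SMARCA2 site. The base just after the match is an A at the second ACTL6A site alone. These features do not rank the sites by strength, which was not tested. In SMARCA2 the match also overlaps ACTAGC, a 6-base word present in the 3′ UTRs of 12.5% of those genes and in that of no other member. That word had been picked out on the fold changes of these same libraries, so its presence in the lowest member is a description and supports nothing. A match of letters is not a site shown to be used, and miR-9-3p itself was not measured, since mature miRNAs have no poly(A) tail. DPF3's transcript in this annotation holds a 3′ UTR of 1 base, so a missing match there says little. The 3′ UTRs used for PHF10 (98 bases) and ACTL6B (149 bases) were short too.

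**Figure D3:**
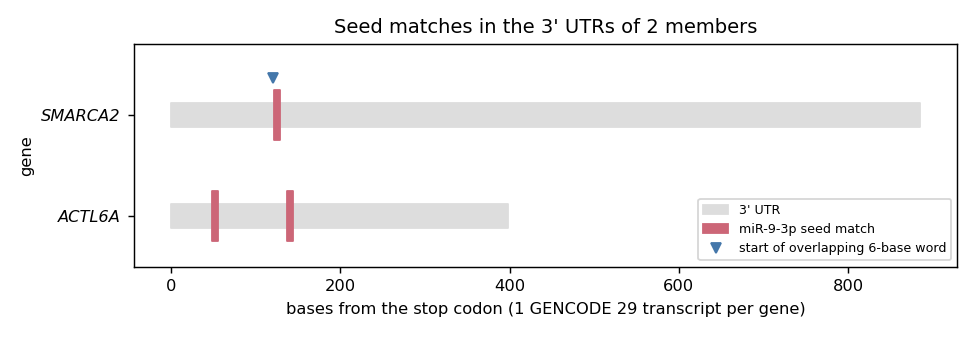
Seed matches of miR-9-3p (red) along the 3′ UTRs (grey) of ACTL6A and SMARCA2, in bases from the stop codon; the triangle marks where the overlapping 6-base word starts. ACTL6A has 2 matches in 398 bases and SMARCA2 has 1 in 885 bases.

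The hosts of miR-9 can be read from poly(A) RNA. MIR9-3HG had 0.422 and 0.123 CPM in the controls and 1.01 and 1.02 CPM in the knockdown libraries (log2 fold change 1.90 ± 0.51, adjusted p = 0.534), with both knockdown libraries above both controls. MIR9-1HG had 7.03 and 6.95 against 11.0 and 6.31 CPM, and MIR9-2HG, matched through its synonym LINC00461, had 3.86 and 3.64 against 3.62 and 3.01 CPM. The host genes MIR124-1HG and MIR124-2HG were at most 0.127 CPM in every library. For MIR9-2HG both knockdown libraries lay below both controls. None of the miR-9 hosts was called.

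The PHD finger subunits are the second set. PHF10 (ENSG00000130024.15, chromosome 6, 169703902 to 169724500, minus strand), found in progenitor BAF and in the related PBAF complex, had 133 and 140 CPM in the controls and 140 and 177 CPM in the knockdown libraries. Its groups did not overlap, but shRPRD1B 1 lay only just above shCtrl 2. The log2 fold change of PHF10 was 0.21 ± 0.14 (adjusted p = 0.741). DPF2 (ENSG00000133884.11, chromosome 11, 65333852 to 65354262, plus strand), the widely used relative, had 98.5 and 104 CPM in the controls and 107 and 126 CPM in the knockdown libraries (0.20 ± 0.13, adjusted p = 0.732). For both genes shRPRD1B 2 was the highest library.

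The neuronal PHD finger genes were already transcribed in the control cells. DPF1 (ENSG00000011332.22, chromosome 19, 38211006 to 38229695, minus strand) had 27.0 and 29.7 CPM in shCtrl and 36.4 and 28.9 CPM in shRPRD1B, with the highest value in shRPRD1B 1 and the other knockdown library inside the control range. Its log2 fold change was 0.20 ± 0.16 (adjusted p = 0.760). DPF3 (ENSG00000205683.12, chromosome 14, 72609034 to 72894101, minus strand), also known from heart and skeletal muscle, had 6.46 and 9.02 CPM in shCtrl and 7.40 and 7.81 CPM in shRPRD1B. Both DPF3 knockdown values lay between the controls, and the log2 fold change was -0.027 ± 0.22 (adjusted p = 0.979), with an interval for the fold from 0.675 to 1.43. Neither gene was called by DESeq2.

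SS18 and SS18L1 are the third pair. SS18 (ENSG00000141380.14, chromosome 18, 26016253 to 26091219, minus strand), the subunit fused to SSX proteins in synovial sarcoma, had 98.8 and 102 CPM in the controls and 102 and 124 CPM in the knockdown libraries (0.17 ± 0.13, adjusted p = 0.766). SS18L1 (ENSG00000184402.15, chromosome 20, 62143769 to 62182514, plus strand), also called CREST, a calcium-responsive coactivator of dendrite growth, had 24.3 and 26.6 CPM against 25.3 and 28.6 CPM (0.084 ± 0.14, adjusted p = 0.880). The groups overlapped for both. The interval for the fold was 0.892 to 1.42 for SS18 and 0.837 to 1.34 for SS18L1, so a change of SS18L1 of the size seen for ACTL6B lies outside it.

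Neither ATPase gene was called. SMARCA4 (ENSG00000127616.21, chromosome 19, 10961030 to 11062273, plus strand), known as BRG1, had 389 and 377 CPM in the controls and 385 and 425 CPM in the knockdown libraries (0.079 ± 0.11, adjusted p = 0.860). SMARCA2 (ENSG00000080503.25, chromosome 9, 2015347 to 2193620, plus strand), known as BRM, had 59.2 and 66.4 CPM in the controls and 45.8 and 56.6 CPM in the knockdown libraries. It was the member with the lowest fold change, and both of its knockdown libraries lay below both controls. The log2 fold change of SMARCA2 was -0.30 ± 0.15 (unadjusted p = 0.0969, adjusted p = 0.697), and its interval for the fold, 0.630 to 1.05, includes no change.

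**Figure D4:**
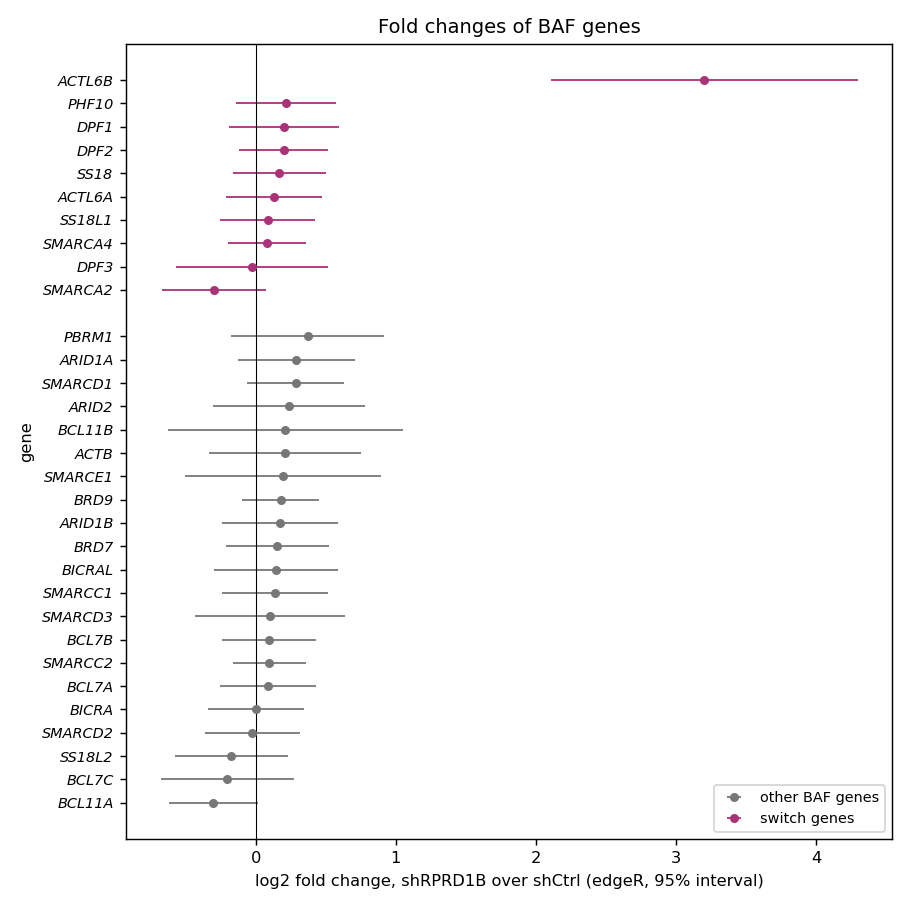
Log2 fold changes (shRPRD1B over shCtrl, edgeR, bars are 95% intervals) of the 10 switch genes (purple) and of the 21 tested other BAF genes (grey), each sorted by size. ACTL6B is at 3.20; all other genes lie between -0.30 and 0.37, and their intervals include 0.

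The members' differences depended on which knockdown library was used. Against the mean of the controls, the median log2 change of the 10 genes was 0.013 in shRPRD1B 1 and 0.22 in shRPRD1B 2, while over all tested genes it was 0.0013 and -5.2e-05. SS18L1 (-0.0055 and 0.17) and SMARCA4 (0.0048 and 0.15) followed that pattern. ACTL6A, SS18, DPF2 and PHF10 did so too. They were called higher without shRPRD1B 1 (log2 fold changes 0.27, 0.30, 0.32 and 0.38, edgeR adjusted p = 0.00818, 0.00293, 0.00245 and 0.000515), and with ACTL6B they made 5 of 10 members, beside 14.6% of all genes tested in that fit called higher and 14.4% called lower. None of these 4 was called without shRPRD1B 2, where ACTL6A turned to -0.020. In that fit DPF1 was called higher (0.36, edgeR adjusted p = 0.0182) and SMARCA2 lower (-0.45, adjusted p = 0.00279), beside 5.91% of all genes higher and 4.47% lower. Each such fit has 1 knockdown library, whose spread is assumed and not measured. DPF3 turned to 0.23 without shCtrl 2 and to 0.012 without shRPRD1B 1, and SS18L1 to -0.0050 without shRPRD1B 2.

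Levels of different genes were compared per kilobase of 1 transcript each. In shCtrl the order was PHF10 (79.4 CPM per kb), SMARCA4 (66.2), ACTL6A (42.4), DPF2 (36.1), SS18 (29.5), DPF1 (17.4), SMARCA2 (10.7), DPF3 (6.80), SS18L1 (5.66) and ACTL6B (0.136). The ranges of neighbours in that order overlapped for DPF3 (5.68 and 7.93) and SS18L1 (5.40 and 5.91) alone. Short transcripts, such as those used for DPF3 (1138 bases) and PHF10 (1719 bases), raise the value per kb. In CPM, without the length correction, SMARCA4 stood above PHF10 in shCtrl (383 against 137). In shRPRD1B the order of the means per kb was the same as in shCtrl, with ACTL6B still last at 1.27 CPM per kb. There the ranges of neighbours overlapped for ACTL6A and DPF2 alone, whose highest DPF2 library lay above the lowest ACTL6A library (41.7 CPM per kb).

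Ratios of transcript levels within a library do not depend on library size. They compare neuronal with progenitor forms, except SMARCA2 over SMARCA4, which compares the alternative ATPases. Per length, ACTL6B was 0.331% and 0.309% of ACTL6A in shCtrl 1 and 2 and 2.50% and 2.93% in shRPRD1B 1 and 2. The log2 ratio was higher in both knockdown libraries, with a difference of 2.87 between group means of -8.05 ± 0.065 and -5.18 ± 0.15 (SD, n = 2 each). Even so, ACTL6A remained the predominant transcript of the pair in all 4 libraries. The exact two-sided permutation p was 0.33, the smallest that groups of 2 allow, and it was 1 after Benjamini-Hochberg adjustment over the 8 ratios compared.

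SMARCA2 was 15.0% and 17.4% of SMARCA4 per length in the controls and 11.8% and 13.1% in the knockdown libraries, so both knockdown values lay below both controls. The log2 difference of that ratio was -0.38 (exact two-sided permutation p = 0.33, adjusted p = 1). SS18L1 was 18.7% and 19.7% of SS18 in the controls and 18.8% and 17.5% in the knockdown libraries, and the groups overlapped (log2 difference -0.078). DPF1 was 47.1% and 49.2% of DPF2 in the controls and 58.7% and 39.4% in the knockdown libraries, one above and the other below both controls. Its log2 difference was -0.00027. DPF3 was 16.1% and 21.4% of DPF2 in the controls against 17.1% and 15.3%. These percentages depend on the transcript lengths: from counts without a length correction, DPF3 over DPF2 was a ratio of 0.0656 and 0.0870 in the controls and DPF1 over DPF2 one of 0.274 and 0.287. A fixed length cancels from the difference between groups for a ratio of single genes. The sum of DPF1 and DPF3 was 19.7% and 22.1% of the sum of PHF10 and DPF2 in the controls, against 24.1% and 16.6%. Over the other 6 ratios the log2 differences ran from -0.21 to -0.00027, and the groups overlapped in each.

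**Figure D5:**
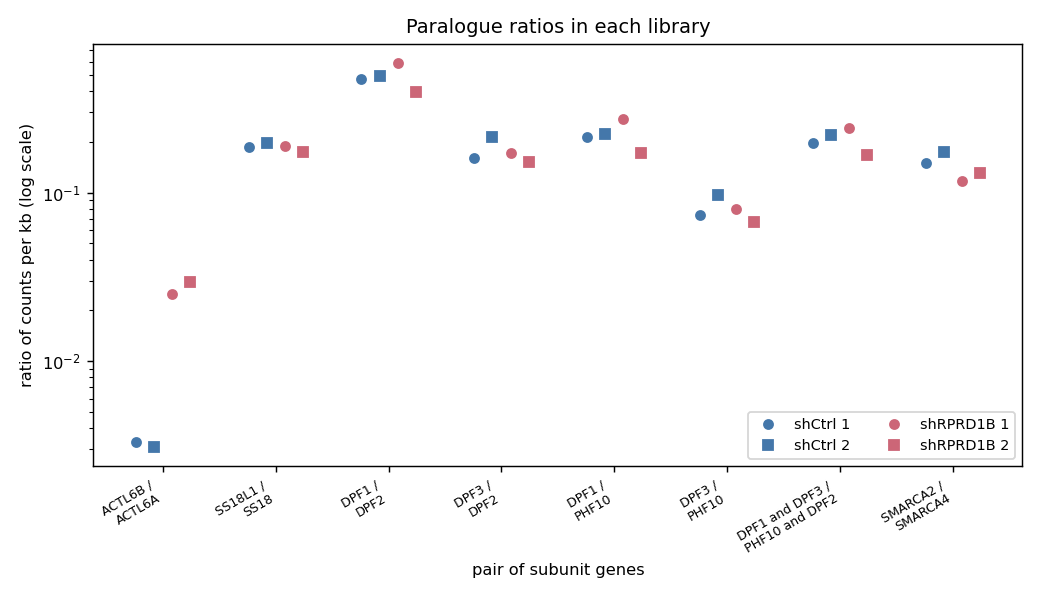
Ratios of counts per kb for 8 pairs of subunit genes in each library, on a log scale (shCtrl blue, shRPRD1B red; circles replicate 1, squares replicate 2). ACTL6B over ACTL6A goes from 0.00331 and 0.00309 to 0.0250 and 0.0293, SMARCA2 over SMARCA4 is slightly lower in both knockdown libraries, and the other 6 ratios overlap.

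The remaining genes of the complex were taken from a list of 22, of which 21 were tested. Of these, edgeR and DESeq2 called 0, and 0 had an unadjusted p under 0.05. Their log2 fold changes ran from -0.30 to 0.37 with a median of 0.15, beside 0.15 for the 10 members and 0.00 for all tested genes. As for the members, the median was 0.012 in shRPRD1B 1 and 0.20 in shRPRD1B 2. The smallest p belonged to BCL11A, a zinc finger subunit, at 24.3 and 24.3 CPM against 19.2 and 20.2 CPM (-0.30 ± 0.13). SMARCD1, a subunit that links the complex to transcription factors, had 120 and 130 CPM against 137 and 167 CPM (0.28 ± 0.14), and its relative SMARCD3, found in muscle and neurons, had 44.0 and 44.0 CPM against 57.4 and 37.1 CPM (0.10 ± 0.22). The DNA-binding subunits ARID1A (0.29 ± 0.17), ARID1B (0.17 ± 0.17) and ARID2 (0.24 ± 0.22), the polybromo subunit PBRM1 (0.37 ± 0.22) and BRD9 of the noncanonical complex (0.18 ± 0.11) were also not called. The neuronal and T cell subunit BCL11B was low in all libraries (2.93, 2.28, 3.78 and 2.19 CPM). SS18L2, a small relative of SS18, gave -0.17 ± 0.16.

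SMARCB1, a core subunit of BAF complexes, had between 0 and 5 counts in every library and was not tested. The cause was not tested, and a count near 0 in these files was not read as absence.

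Of 12 regulators linked to the switch, 10 were tested and edgeR called 1 higher, against 0.0295% of all tested genes. It was PTBP2 (40.8 ± 1.36 to 149 ± 1.18 CPM, SD, n = 2 each), the neuronal splicing regulator. The list was set with earlier results of these data known, so that count is a description. PTBP1, its relative in other cells, had 861 and 866 CPM in shCtrl and 601 and 765 CPM in shRPRD1B (-0.34 ± 0.15, adjusted p = 0.682). REST had 39.7 and 47.9 against 33.7 and 46.2 CPM (-0.13 ± 0.19), and its corepressor RCOR1 gave 0.38 ± 0.19. The coactivator CREBBP, a partner of SS18L1, had 106 and 119 against 110 and 207 CPM (0.50 ± 0.29).

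Neuronal marker genes were read beside ACTL6B. Of 14, 11 were tested and had a median log2 fold change of 0.57. It was positive for 8, beside 50.5% of all tested genes, and negative for 3 (lowest -0.44). At an unadjusted edgeR p under 0.05 there were 5 higher, against 3.55% of all tested genes, and edgeR called 0. DESeq2 called 2 of the list higher, beside 0.718% of the genes it tested. They were SYN1, a synaptic vesicle gene, at 0.591 and 0.740 against 1.95 and 2.43 CPM, and INA, a neuronal intermediate filament gene, at 23.2 and 26.8 against 37.1 and 44.3 CPM. RBFOX3 (0.83 ± 0.26), SNAP25 (1.06 ± 0.41) and ELAVL4 (1.97 ± 0.65) were also among the 5. The summed level of the list was 260 and 252 CPM in the controls and 294 and 235 CPM in the knockdown libraries. DCX, STMN2 and ELAVL3, which mark young neurons, were at most 0.109 CPM in every library, and TUBB3 at most 0.801 CPM. As for SMARCB1, such low counts were not read as absence. Of 8 neural progenitor markers 5 were tested and 0 had an unadjusted p under 0.05. SOX2 (26.6 and 32.2 against 28.8 and 36.7 CPM) and PAX6 (30.2 and 33.5 against 32.2 and 33.0 CPM) overlapped between the groups. The part of neuronal gene expression as a whole in the ACTL6B difference was not tested.

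Among markers of other cell types edgeR called 0. DESeq2 called 1, the fibroblast gene LUM, which fell (2.20 and 2.44 against 0.870 and 0.620 CPM), beside 111 of its 17955 tested genes called lower. Summed levels were 34.6 to 38.9 CPM in shCtrl and 23.5 to 25.5 CPM in shRPRD1B for 7 fibroblast genes, and 89.9 to 93.2 against 58.7 to 85.1 CPM for 6 epithelial genes. They were 4.18 to 4.19 against 2.54 to 4.17 CPM for 5 leukocyte genes and 2.18 to 2.20 against 1.93 to 3.13 CPM for 4 skeletal muscle genes. All 5 tested epithelial genes had a negative log2 fold change (median -0.61, 0 at an unadjusted p under 0.05), and the 4 tested fibroblast genes had a median of -0.51 with 3 negative and 2 lower at an unadjusted p under 0.05. The 2 tested leukocyte genes had a median of -0.17 and the 3 tested muscle genes one of 0.32, with 0 at an unadjusted p under 0.05 in either. The part of these markers in the members' differences was not tested. PTPRC, the defining leukocyte gene, was at most 0.0305 CPM, and KRT19 and COL1A2 had 0 counts in every library. These counts too were not read as absence.

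The genes most like each member were found by the distance between log2 CPM values centred on each gene's mean, over the 4 libraries, among protein-coding genes within 2-fold of its level. For ACTL6B the nearest of 1328 genes was KCND3, a potassium channel gene, at 0.359 and 0.308 CPM in shCtrl and 1.95 and 1.90 CPM in shRPRD1B (distance 0.715). The next was INSM2, a zinc finger gene, at 0.232 and 0.247 against 0.931 and 1.66 CPM (distance 0.814). DESeq2 called both higher (log2 fold changes 2.53 and 2.44, adjusted p = 0.000186 and 0.0218), and edgeR called neither (adjusted p = 0.147 and 0.410). Both genes were picked for their pattern in these same libraries, so the DESeq2 calls follow from the choice and support nothing. SMARCA2 had USP25 at a distance of 0.0244, DPF3 had LRP1B at 0.0612, and ACTL6A had KCTD3 at 0.00837. Counting error enters these distances and is larger at low counts, so they were not compared between members. Over 4 libraries many genes share a flat pattern, and the likeness is a description.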

How the data were processed

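RNA was measured in 4 HEK293T libraries, 2 shCtrl and 2 shRPRD1B. The deposited values are raw read counts per gene, 1 file per library. The submitters' processing notes name Trim Galore, HISAT2, featureCounts and hg38. Versions, annotation release, strand setting and the handling of reads shared by genes are not stated there. The counts were used as deposited. Symbols were matched by identifier (62686 of 69222), coordinates are from RefSeq (GRCh38.p14), and lengths and 3′ UTRs from 1 GENCODE 29 transcript per gene, chosen by APPRIS rank, CCDS membership, support level and length.

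The test was edgeR 4.0.16 (R 4.3.3): TMM factors, filterByExpr with a minimum count of 10, a robust quasi-likelihood fit with the group as its only term, and Benjamini-Hochberg adjustment over 20319 genes. Log2 CPM and ratios used a prior count of 2, and levels and percentages used none. Alternatives were DESeq2 1.42.0, limma 3.58.1 voom, other size factors and filters, the replicate number as a block, a prior count of 0.5, no length correction and each library left out.

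The members, the lists and the rules were chosen with earlier results of these data known. Named genes are the members, RPRD1B, list genes that were called, the 6 other BAF genes and up to 4 of each further list with the smallest p, a few genes tied to the switch, and the 2 nearest in pattern. Not all of these are printed. The flanking genes, SMARCB1 and marker genes at or near 0 were named after their values were seen.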

Additional observations from a re-analysis of the deposited data

How the results depend on the processing

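With groups of 2, low counts and an uneven knockdown pair set the limits. The other scalings moved no member's direction or call. ACTL6B passed with DESeq2 (3.23) and with the replicate block (3.21, adjusted p = 0.0126). The replicate numbers share no stated culture or batch, and same-numbered libraries did not deviate together (correlation 0.013). With the block, 85 genes were called higher and 56 lower, with 1 member higher. Over all genes the counts were 6 higher and 8 lower as reported, 129 and 111 with DESeq2 (1 member higher), 0 and 0 with limma voom, 23 and 17 when genes of low count were kept. A floor of 5 CPM in 2 libraries gave 0 and 0 and left ACTL6B untested.

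Leaving out each library gave 12 to 3139 genes higher and 36 to 3096 lower, 0 to 5 members higher and 0 to 1 lower, and 0 to 9 other BAF genes higher and 0 to 3 lower. The members' log2 fold changes then ran from -0.0204 to 0.27 for ACTL6A, 2.93 to 3.45 for ACTL6B, 0.0240 to 0.30 for SS18, -0.00497 to 0.17 for SS18L1, 0.0294 to 0.36 for DPF1, 0.0772 to 0.32 for DPF2, -0.25 to 0.23 for DPF3, 0.0396 to 0.38 for PHF10, -0.45 to -0.15 for SMARCA2 and 0.0071 to 0.15 for SMARCA4. The ratio ACTL6B over ACTL6A differed by 2.76 to 2.98 then, and by 3.03 with a prior count of 0.5. With groups of equal size, the ratio differences taken within each replicate number are the same by arithmetic, so they give no check. Without the length correction 25 ratios of single libraries moved by more than the spread between replicates and 7 did not.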

Other observations

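ACTL6A also belongs to the INO80 and NuA4/TIP60 complexes, so their genes were read beside it. Of 22 such genes, all tested, 16 had a positive log2 fold change (median 0.11), edgeR and DESeq2 called 0, and 0 had an unadjusted p under 0.05. EPC1, a scaffold of the NuA4/TIP60 complex, had 14.4 and 13.3 CPM in shCtrl and 15.6 and 21.8 CPM in shRPRD1B (0.43 ± 0.20), and the ATPase EP400 gave 0.31 ± 0.18. Their median was 0.020 in shRPRD1B 1 and 0.22 in shRPRD1B 2, like the medians of the BAF genes.

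Among 15 ATPases of other remodellers, 13 had a positive log2 fold change (median 0.19), beside 50.5% of all tested genes, and edgeR and DESeq2 called 0. Their median change was 0.0035 in shRPRD1B 1 and 0.33 in shRPRD1B 2, so the higher median came with the second of these libraries. At an unadjusted edgeR p under 0.05 there was 1 of the 15, CHD6, beside 7.49% of all tested genes. CHD6 had 55.5 and 64.9 CPM in shCtrl and 73.6 and 95.2 CPM in shRPRD1B (0.49 ± 0.17, adjusted p = 0.638). SMARCA5, the ISWI ATPase, had 187 and 193 against 201 and 245 CPM (0.24 ± 0.13). SMARCA1, its relative, had 107 and 113 against 105 and 72.0 CPM (-0.31 ± 0.19).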
